A study of Mus musculus with 29 samples.

Results

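Poly-ADP-ribose polymerases (PARPs) are enzymes that move ADP-ribose from NAD+ onto proteins or nucleic acids, and several of them are made in larger amounts when a cell senses interferon. The mRNA levels of 8 genes were followed. Parp9, Parp10, Parp11, Parp12, Parp14, Dtx3l and Zc3hav1 are 7 genes known to be induced by interferon. Parp1, the DNA damage enzyme of the family, served as the member that interferon does not induce. Not all of them encode such an enzyme, since Dtx3l encodes a ubiquitin ligase and Zc3hav1 an RNA-binding protein. The 8 symbols were looked up by name among the 48709 Ensembl identifiers of the count tables, and each matched 1 identifier.

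Type I interferon binds its receptor on the cell surface, and kinases there activate transcription factors that enter the nucleus and bind interferon-stimulated response elements near their target genes. In the brain, microglia are the resident macrophages and respond readily to interferon. The proteins of several of these genes restrict viruses: the product of Zc3hav1 (ZAP) binds foreign RNA, PARP9 and the ubiquitin ligase DTX3L work as a complex, and PARP10, PARP11, PARP12 and PARP14 attach single ADP-ribose units to their targets.

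RNA was sequenced in 3 experiments that compared an antisense inhibitor of miR-99b-5p (anti-miR-99b) with a scrambled oligonucleotide (sc-control), to ask which genes respond when this microRNA is blocked. In the first, male C57BL/6J mice of 3 months had lipid nanoparticles injected into the prefrontal cortex (PFC), 3 with the inhibitor and 3 with the control oligonucleotide, and the tissue was taken 5 days later. In the second, primary microglia from CD1 mice of postnatal day 1 were treated with locked nucleic acid oligonucleotides, in 4 libraries the inhibitor and in 4 the control. In the third, microglia from CD1 mice of postnatal day 1 were treated for 48 h (inhibitor in 7 libraries, control in 8). These microglia were then transferred to cortical neurons of CD1 embryos of day 17.5. RNA of the co-culture was collected after another 48 h. No line or mouse carried a transgene or an engineered allele as far as the labels say. They do not tell whether the libraries of the cultures came from separate preparations, so p-values measure the spread between these libraries, which may be technical.

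Between 21324156 and 37901110 reads per library fell on genes. Microglia markers (8 genes) summed to 8427 to 8851 CPM (reads per 1000000 on genes, after scaling) in the microglia, to 371 to 497 CPM in the PFC and to 87.1 to 112 CPM in the co-culture. The 8 neuron markers summed to 8785 to 9561 CPM in the PFC and to 5928 to 6230 CPM in the co-culture, but to 109 to 123 CPM in the microglia. The libraries were poly(A)-selected and hold no measure of mature miR-99b-5p, so that the effect of the inhibitor on its target could not be read from them.

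The mature microRNA that the inhibitor pairs with is shown first, since matches to its seed were searched in the members' transcripts. It lies at chr17:17830194-17830215 on the plus strand (RefSeq, GRCm38.p6), and bases 2 to 8, the seed, are in capitals.
mmu-miR-99b-5p: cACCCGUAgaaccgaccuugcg

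The DNA complement of this seed, TACGGGT, was searched in the 3′ UTRs of the members' transcripts (GENCODE M21, GRCm38). It occurred in none of the 8 members. Of all 21681 protein-coding genes with a 3′ UTR, 250 held it (1.15%). The last 6 letters of the match, ACGGGT, occurred in 1 member, Dtx3l, and in 5.66% of all these genes. That site begins at base 1785 of the 2791-base 3′ UTR of transcript Dtx3l-201, in a stretch at chr16:35927500-35927529 on the minus strand, shown with the 6 matching letters in capitals.
Dtx3l 3′ UTR site: tttcaagttttaACGGGTaaatagccttcc

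In this stretch an A follows the capitals, opposite the base of the microRNA before the seed. How many genes hold ACGGGT followed by an A was not counted. Binding at this site was not measured, and the absence of TACGGGT says only that these letters do not occur in the annotated 3′ UTRs.

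The 8 genes lie on 4 chromosomes. Parp9 (chr16:35938470-35972605, plus strand), Dtx3l (chr16:35926511-35939151, minus strand) and Parp14 (chr16:35832874-35871544, minus strand) are neighbours on chromosome 16. Parp11 (chr6:127446840-127494261, plus strand), Parp12 (chr6:39086410-39118349, minus strand) and Zc3hav1 (chr6:38305286-38354603, minus strand) are on chromosome 6. Parp10 (chr15:76231174-76243441, minus strand) and Parp1 (chr1:180568924-180601254, plus strand) stand alone. Parp9 and Dtx3l begin head to head and share 458 exon bases on opposite strands, 9.4% of the exon length of Parp9 and 8.0% of that of Dtx3l. Parp10 shares 205 exon bases (4.8%) with Plec on the same strand. The strand setting of the counting is not given in the sources used here, so reads in these stretches cannot be assigned with certainty.

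RefSeq windows of the 250 bases before the transcription start were at hand for Parp1, Parp11, Parp12, Dtx3l and Zc3hav1. Parp9, Parp10 and Parp14 had no entry. Each window was searched on both strands for the core of the interferon-stimulated response element (ISRE), here GAAA, 2 bases of any kind and GAAA again, and for the gamma-activated site (GAS), here TTC, 3 bases of any kind and GAA, which reads the same on both strands. The ISRE letters occurred in 2.98% and the GAS letters in 7.02% of all 32851 windows. Among the members only the upstream start of Parp11 held them, with an ISRE match on the minus strand that begins 44 bases before the start and a GAS match that begins 37 bases before it and overlaps the first. Parp1, Parp12, Dtx3l, Zc3hav1 and the second start of Parp11 held neither pattern. The Dtx3l window overlapped 7 annotated exon entries and lay partly inside the gene as GENCODE draws it. Fewer than 250 bases upstream of that gene's GENCODE start were therefore searched. The windows of Parp12 and of the second start of Parp11 overlapped 1 exon entry each. Windows free of annotated exons are shown for Parp11, for Parp1, the member that interferon does not induce, and for Zc3hav1, with the matched letters in capitals. They cover chr6:127446590-127446839 (plus strand), chr1:180568641-180568890 (plus strand) and chr6:38354604-38354853 (minus strand) of GRCm38.p6.
Parp11 upstream window: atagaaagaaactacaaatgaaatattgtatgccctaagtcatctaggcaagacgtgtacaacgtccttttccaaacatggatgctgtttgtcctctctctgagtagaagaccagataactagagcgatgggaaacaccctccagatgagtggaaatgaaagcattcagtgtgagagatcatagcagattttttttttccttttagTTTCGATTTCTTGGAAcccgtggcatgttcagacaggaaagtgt
Parp1 upstream window: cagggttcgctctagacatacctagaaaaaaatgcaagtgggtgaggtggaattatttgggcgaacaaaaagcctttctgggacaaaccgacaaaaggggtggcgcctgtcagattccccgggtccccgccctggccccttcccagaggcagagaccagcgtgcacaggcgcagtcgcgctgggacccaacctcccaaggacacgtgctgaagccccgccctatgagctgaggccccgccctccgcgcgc
Zc3hav1 upstream window: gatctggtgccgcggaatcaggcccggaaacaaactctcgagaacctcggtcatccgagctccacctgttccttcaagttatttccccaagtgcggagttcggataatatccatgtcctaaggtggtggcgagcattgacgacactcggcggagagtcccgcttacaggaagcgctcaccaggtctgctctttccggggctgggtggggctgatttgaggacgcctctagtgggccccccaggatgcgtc

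The motif matches are letters in these windows and not measured binding.

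Levels were compared between genes as reads per kilobase of exon per 1000000 reads (RPKM) in the sc-control libraries. In microglia the order ran from Parp1 (46.8 ± 1.82, SD, n = 4) over Parp14 (24.4 ± 2.01), Zc3hav1 (23.8 ± 0.739), Parp12 (22.2 ± 1.76), Parp9 (12.7 ± 0.738), Dtx3l (10.8 ± 0.307) and Parp10 (8.86 ± 0.521) to Parp11 (3.54 ± 0.221). Parp14, Zc3hav1 and Parp12, neighbours in that order, did not differ beyond their spread. In the PFC Parp1 was again highest (16.7 ± 0.573, n = 3), followed by Parp12 (3.83 ± 0.520) and Parp11 (2.97 ± 0.114). The other 5 members lay between 1.09 for Parp14 and 1.37 for Parp9, with SDs of 0.305 to 0.442, and their order could not be told apart from that spread. In the co-culture Parp11 came second after Parp1 (8.36 ± 0.272 against 20.5 ± 0.457, n = 8), and Parp14 was lowest at 0.707 ± 0.0889.

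Parp14 and Zc3hav1 thus sat near the top of the order in microglia and among the lowest 3 of 8 in the co-culture. Set side by side across the experiments, which were normalized separately and differ in strain and age, the mean control CPM of Parp14 in microglia was 22.3 times that in the PFC and 34.6 times that in the co-culture. For Zc3hav1 these ratios were 18.4 and 22.6, and for Parp9, Dtx3l, Parp10 and Parp12 they lay between 5.78 and 9.54. Parp1 was 2.80 and 2.28 times higher in microglia. Parp11 alone was lower in microglia than in the co-culture, at 0.424 times its level there. The levels are descriptions with no test.

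**Figure D1:**
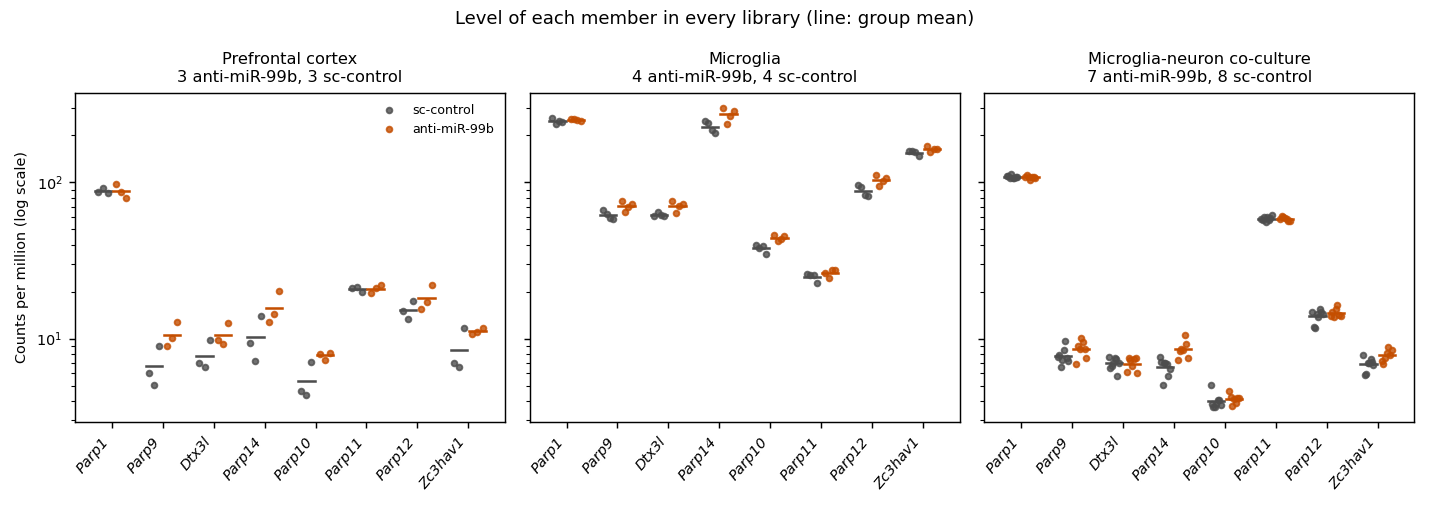
CPM of each member (log axis) in every library, with sc-control in grey, anti-miR-99b in orange and group means as lines. Parp14 lay at 207 to 301 CPM in microglia and at 5.02 to 10.5 CPM in the co-culture.

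In the PFC 0 of the 8 members passed the test (edgeR quasi-likelihood, adjusted p under 0.1 and a log2 fold change beyond 0.2), where 15 of 17364 genes were called higher (0.0864%) and 0 lower. DESeq2 also called 0 members. At an unadjusted p under 0.05, 4 members were higher, Parp9, Parp10, Parp14 and Dtx3l, against 5.17% of all genes, and the adjusted p of the 8 members ranged from 0.518 to 0.997. Fitted log2 fold changes (anti-miR-99b over sc-control) were above 0 for 6 of 8 members, and their median over the 7 interferon-induced members was 0.44, against 0.0025 over all genes tested. In tissue, more cells of a type and more RNA per cell cannot be told apart.

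Parp9, which encodes the partner of DTX3L, was measured at 6.00, 5.04 and 8.91 CPM in sc-control replicates 2, 3 and 4 and at 8.94, 10.0 and 12.8 CPM in anti-miR-99b replicates 1, 2 and 3. The groups did not overlap, but the highest control and the lowest treated library nearly touched. The log2 fold change was 0.67 ± 0.20 (SE; adjusted p = 0.518, edgeR). Dtx3l, the ubiquitin ligase encoded beside it, stood at 6.95, 6.55 and 9.76 CPM in the controls and at 9.84, 9.22 and 12.5 CPM after anti-miR-99b. Here the highest control lay inside the treated range, and the log2 fold change was 0.44 ± 0.17 (adjusted p = 0.648, edgeR).

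Parp14, a mono-ADP-ribosyltransferase with ADP-ribose-binding macrodomains, gave 9.36, 7.22 and 14.0 CPM in the controls and 12.8, 14.4 and 20.1 CPM after anti-miR-99b, with the groups overlapping in 1 library each. Its log2 fold change was 0.63 ± 0.23 (adjusted p = 0.639, edgeR). Parp10, another mono-ADP-ribosyltransferase, gave 4.61, 4.37 and 7.05 CPM against 8.00, 7.33 and 8.06 CPM. These groups did not overlap, as for Parp9 and for 7.52% of all genes in the higher direction, and the log2 fold change was 0.54 ± 0.18 (adjusted p = 0.573, edgeR).

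Zc3hav1, the RNA-binding antiviral protein, had its highest value of the experiment in a control. The controls stood at 6.95, 6.62 and 11.8 CPM and the treated libraries at 10.7, 11.1 and 11.7 CPM, for a log2 fold change of 0.40 ± 0.19 (adjusted p = 0.660, edgeR). Parp12, which localizes to the Golgi apparatus and to stress granules, stood at 15.0, 13.4 and 17.5 CPM in the controls and at 15.5, 17.1 and 22.1 CPM after anti-miR-99b, with a log2 fold change of 0.25 ± 0.14 (adjusted p = 0.672, edgeR). The groups of both genes overlapped.

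Parp11, whose protein is found at the nuclear envelope, and Parp1 stood apart from the other 6. Parp11 ranged from 20.0 to 21.5 CPM in the controls and from 19.5 to 21.97 CPM after anti-miR-99b, with a log2 fold change of -0.0022 (95% interval -0.18 to 0.18). Parp1 ranged from 86.0 to 91.7 CPM and from 79.9 to 97.5 CPM, with a log2 fold change of -0.0017 (95% interval -0.18 to 0.18).

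One control library, sc-control replicate 4, was the highest control for Parp9, Dtx3l, Parp14, Parp10, Parp12 and Zc3hav1. It was the only control on sequencing lane 7, as anti-miR-99b replicate 3 was the only treated library there, and that library was the highest treated one for the same 6 genes. On lane 6, with 2 libraries a group, the mean log2(CPM + 0.5) after anti-miR-99b exceeded that of the controls by 0.73 for Parp9, 0.71 for Parp10, 0.69 for Parp14, 0.64 for Zc3hav1, 0.47 for Dtx3l and 0.19 for Parp12. On lane 7, with 1 library each, these differences were 0.50, 0.18, 0.51, -0.0072, 0.34 and 0.33. Without sc-control replicate 4, 4 members passed the threshold, Parp9 (log2 fold change 0.94, adjusted p = 0.0470), Parp10 (0.79, 0.0327), Parp14 (0.92, 0.0761) and Zc3hav1 (0.71, 0.0311; edgeR). With the lane as a block Parp9 and Parp14 passed, at adjusted p = 0.0501 and 0.0536 (edgeR). Calls over all genes tested rose as well, from 15 to 201 without sc-control replicate 4 and to 77 with the lane as a block.

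**Figure D2:**
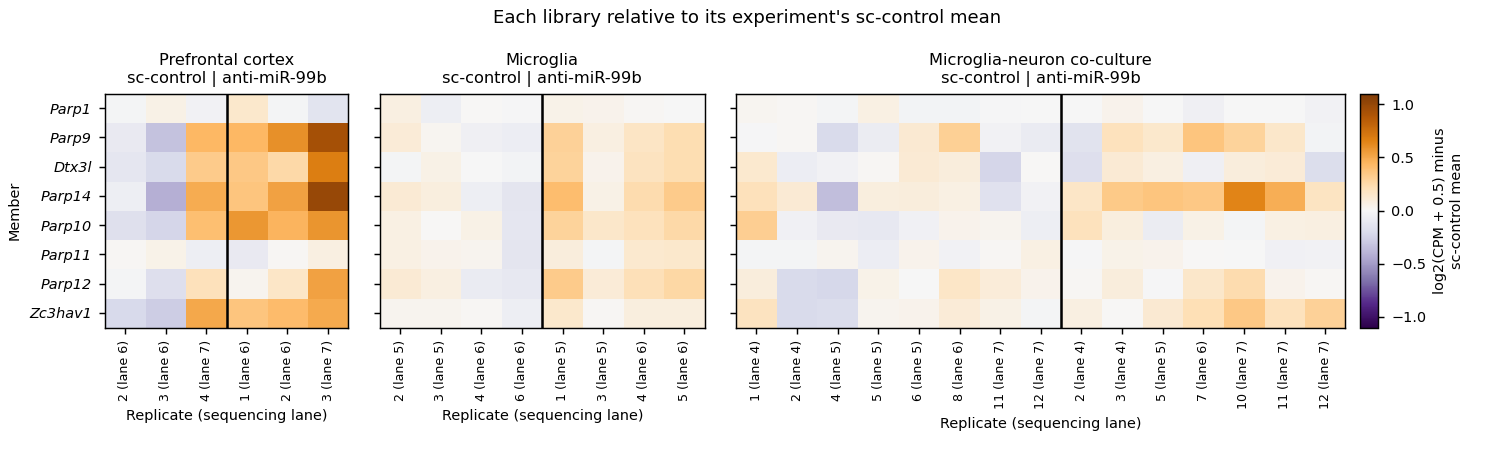
Level of each member in each library as log2(CPM + 0.5) minus the mean of the sc-control libraries of its experiment, with libraries ordered by treatment, lane and replicate. In the PFC the lane 7 control carried orange cells (higher) for 6 members, as most treated libraries did, while Parp1 and Parp11 stayed pale in every column.

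Markers of other cells were set beside these values. In the PFC 7 of 8 microglia markers had a log2 fold change above 0 (median 0.22), with 0 passing the threshold and summed levels of 437 to 497 CPM after anti-miR-99b against 371 to 491 CPM in the controls. Of 7 markers of infiltrating leukocytes, 4 were abundant enough to test, and all 4 had a log2 fold change above 0 (median 0.90), at summed levels of 4.57 to 6.65 against 2.22 to 5.07 CPM and with 0 past the threshold. Medians of the neuron, astrocyte, oligodendrocyte, endothelial and fibroblast lists lay between -0.074 and 0.12. At an unadjusted p under 0.05 (edgeR), 2 microglia, 2 leukocyte, 1 astrocyte and 1 fibroblast marker were higher, against 5.17% of all genes, and 1 oligodendrocyte marker was lower. The part of such cells in the members' values was not tested.

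In microglia 5 of the 8 members rose: Parp14, Parp12, Parp10, Parp9 and Dtx3l passed the test (edgeR, adjusted p under 0.1 and a log2 fold change beyond 0.1), where 65 of 14953 genes were called higher (0.435%) and 8 lower. The increases were small, between 1.14-fold and 1.20-fold. Parp1, Parp11 and Zc3hav1 did not pass. The median log2 fold change of the 7 interferon-induced members was 0.20, against 0.0025 over all genes tested, and 6 members had an unadjusted p under 0.05 in the higher direction, against 3.4% of all genes.

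Parp14 was measured at 246, 240.4, 217 and 207 CPM in sc-control replicates 2, 3, 4 and 6 and at 301, 237, 268 and 286 CPM in anti-miR-99b replicates 1, 3, 4 and 5. The treated libraries lay above every control except for replicate 3, which fell among them. The log2 fold change was 0.26 ± 0.056 (adjusted p = 0.0395, edgeR), while DESeq2 gave the same size with an adjusted p of 0.629. Parp12 was measured at 95.9, 93.2, 83.1 and 82.05 CPM in the controls and 111, 95.2, 102 and 106 CPM after anti-miR-99b, with replicate 3 again inside the control range. Its log2 fold change was 0.23 ± 0.048 (adjusted p = 0.0303, edgeR).

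Parp10 was the member whose groups did not overlap in microglia, which held for 1.65% of all genes in the higher direction. Controls stood at 39.6, 37.98, 39.2 and 34.7 CPM and treated libraries at 46.4, 41.97, 43.4 and 45.3 CPM. The log2 fold change was 0.23 ± 0.045 (adjusted p = 0.0257, edgeR), and its rank by p among all genes was 27.

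The partners Parp9 and Dtx3l had similar CPM in microglia. Parp9 stood at 66.4, 62.7, 59.3 and 58.5 CPM in the controls and at 75.6, 64.9, 69.4 and 72.4 CPM after anti-miR-99b, with a log2 fold change of 0.20 ± 0.045 (adjusted p = 0.0522, edgeR). Dtx3l stood at 60.9, 64.5, 61.7 and 60.7 CPM and at 75.6, 63.5, 70.6 and 72.8 CPM, with a log2 fold change of 0.19 ± 0.043 (adjusted p = 0.0568, edgeR). In both, 3 of the 4 treated libraries lay above every control and replicate 3 did not. How reads in their shared exon bases were counted is not known.

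Zc3hav1 stood at 159, 158, 156 and 148 CPM in the controls and at 172, 157, 164 and 164 CPM after anti-miR-99b, with a log2 fold change of 0.083 ± 0.032 (adjusted p = 0.647, edgeR). Its unadjusted p was 0.0164, and again replicate 3 alone of the treated libraries lay within the control range. Parp11 stood at 25.9, 25.6, 25.4 and 22.6 CPM and at 26.5, 24.5, 27.4 and 27.5 CPM, with a log2 fold change of 0.095 (95% interval -0.012 to 0.20). Parp1 ranged from 237 to 260.1 CPM in the controls and from 247 to 256 CPM after anti-miR-99b. Its log2 fold change of 0.024 had a 95% interval of -0.038 to 0.085, an upper bound below the lower bound of each of the 5 members that passed.

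The calls in microglia depended on single libraries. On lane 5, which held anti-miR-99b replicate 3, the mean log2 difference was 0.13 for Parp14, 0.12 for Parp12, 0.18 for Parp10, 0.12 for Parp9 and 0.14 for Dtx3l, and on lane 6 it was 0.38, 0.33, 0.26, 0.27 and 0.23 (2 libraries a group on each lane). With the lane as a block the same number of members, 5, passed. Left out singly, each of sc-control replicates 4 and 6 and anti-miR-99b replicates 1 and 5 took the count of members called to 0. Calls over all genes fell too, from 73 to 2, 9, 14 and 5 in that order. Without anti-miR-99b replicate 4 only Parp10 passed, and 31 genes were called. The log2 fold changes of these 5 members stayed above 0 in all 14 alternatives and ranged from 0.084 to 0.33. With a replicate block over the 4 libraries whose numbers occur in both groups, 2 members passed, Parp12 and Parp14, with log2 fold changes of 0.16 and 0.14. Over all genes, 311 were called with that block.

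Genes of the interferon pathway in the same libraries were taken from lists drawn up with earlier results of these data known. Over all genes tested in microglia, 0.435% were called higher. Of 11 signalling genes 4 were called higher and 0 lower in microglia (median log2 fold change 0.080), among them Irf7, the interferon-inducible transcription factor (0.65 ± 0.11, adjusted p = 0.0106, edgeR), Usp18 and Stat2. Of 10 other interferon-stimulated genes 8 were called higher (median 0.58), led by Ifit3 (0.71), Ifit1 (0.69), Mx1 (0.57), Oasl2 (0.61) and Rsad2 (0.62). Over the 10 the log2 fold changes ran from 0.11 to 0.71, a range that takes in those of the 5 PARP and Dtx3l increases. The interferon genes themselves, 4 in the list, were too low to test in each experiment and reached at most 0.0826 CPM in sum in any library, with 2 to 3 of the 4 at 0 reads in every library of an experiment.

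Genes close to the members in biochemistry did not pass the threshold in microglia. Among 9 other ADP-ribosyltransferases, 10 enzymes and proteins that remove or read ADP-ribose, 9 tested genes of NAD+ supply and use, 4 of the Deltex family and 10 partners of ZAP and RNA decay genes, 0 were called by edgeR in either direction, and their medians lay between -0.020 and 0.018. By unadjusted p under 0.05 these lists held 0 higher and 1 lower, 0 and 0, 1 and 0, 0 and 0, and 2 and 1 genes. The smallest p of each belonged to Parp4 (log2 fold change -0.092), Adprh (0.072), Nampt (0.086), Dtx2 (0.080) and Trim25 (0.11), the ubiquitin ligase that acts with ZAP. Microglia markers did not pass either, with 0 of 8 called and a median of 0.021. Of 7 oligodendrocyte markers 1 was called lower and 0 higher by edgeR, 4 had an unadjusted p under 0.05 in the lower direction, and the median was -0.10, with summed levels of 198 to 219 CPM after anti-miR-99b against 204 to 238 CPM in the controls. In the other marker lists 0 genes were called by edgeR, and 1 neuron and 1 astrocyte marker had an unadjusted p under 0.05, both lower. The fibroblast or meningeal markers had the highest median (0.25), with 2 of 4 tested genes higher at an unadjusted p under 0.05, and summed levels of 62.8 to 90.5 against 58.7 to 78.8 CPM. The part of such cells in the members' values was not tested. Cd3e and Cd8a, the T cell markers, were at 0 reads.

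**Figure D3:**
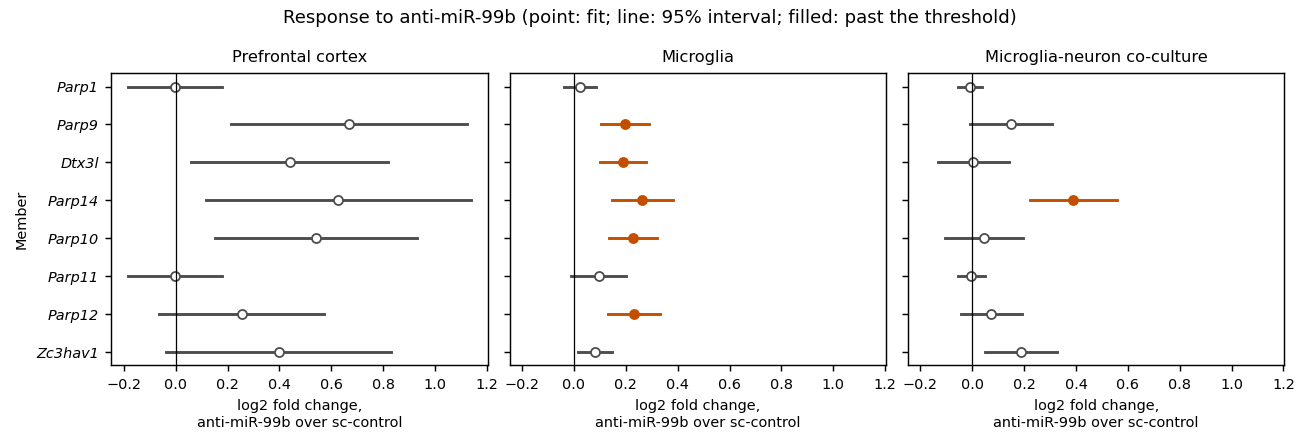
log2 fold change of anti-miR-99b over sc-control with its 95% interval (edgeR) for each member in the 3 experiments, filled orange where the threshold was passed. The 5 filled points in microglia lay between 0.19 and 0.26, the filled point of the co-culture is Parp14 at 0.39, and the intervals of the PFC were the widest.

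In the co-culture 1 of the 8 members rose, Parp14 (edgeR, adjusted p under 0.05 and a log2 fold change beyond 0.1), where 137 of 16193 genes were called higher (0.846%) and 90 lower. Its level had a lowest, median and highest value of 5.02, 6.89 and 7.60 CPM in the 8 controls and of 7.34, 8.47 and 10.5 CPM in the 7 treated libraries. Of the treated libraries 5 lay above every control, and replicates 2 and 12 did not. The log2 fold change was 0.39 ± 0.081 (adjusted p = 0.0113, edgeR), or 1.31-fold, on 154 to 316 reads per library. It remained called without any 1 of the 15 libraries, at 0.33 to 0.43, and was not called with a replicate block over the 8 libraries whose numbers occur in both groups (0.33, adjusted p = 0.126, edgeR). Within lanes its mean log2 difference was 0.088 on lane 4, 0.43 on lane 5, 0.29 on lane 6 and 0.53 on lane 7.

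Zc3hav1 came next. Its lowest, median and highest values were 5.84, 7.00 and 7.86 CPM in the controls and 6.87, 7.90 and 8.84 CPM after anti-miR-99b, and 4 of 7 treated libraries lay above every control. The log2 fold change of 0.19 ± 0.067 did not pass (unadjusted p = 0.00950, adjusted p = 0.188, edgeR). Parp14 and Zc3hav1 were the 2 members with an unadjusted p under 0.05 in the higher direction, against 6.4% of all genes. No member had groups that did not overlap, which 0.303% of all genes had in the higher direction.

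For the remaining 6 members the log2 fold changes were 0.15 for Parp9 (95% interval -0.0091 to 0.31), 0.073 for Parp12 (-0.045 to 0.19), 0.046 for Parp10 (-0.11 to 0.20), 0.0045 for Dtx3l (-0.13 to 0.14), -0.0033 for Parp11 (-0.056 to 0.049) and -0.0091 for Parp1 (-0.054 to 0.036). The interval of Dtx3l ended below the 0.19 it had in microglia, and the difference between these responses, 0.21 ± 0.11, was not called (adjusted p = 0.926, edgeR). Its values ran from 5.78 to 7.63 CPM in the controls and from 6.04 to 7.54 CPM after anti-miR-99b. The median over the 7 interferon-induced members was 0.073, against 0.0025 over all genes.

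In the co-culture 2 of 8 microglia markers passed the threshold, and 3 had an unadjusted p under 0.05, all higher. Csf1r (log2 fold change 0.34, adjusted p = 0.00101) and Cx3cr1 (0.39, adjusted p = 0.0107; edgeR) were called higher, and the list had a median of 0.12 and summed levels of 91.5 to 112 CPM after anti-miR-99b against 87.1 to 106 CPM in the controls, ranges that overlapped. Aif1, Fcrls, P2ry12 and Tmem119 had log2 fold changes of 0.043 to 0.25 and Itgam one of -0.24, none past the threshold. The part of these markers' cells in the value of Parp14 was not tested. Of the pathway lists, Rsad2 among 10 interferon-stimulated genes (0.39, adjusted p = 0.0254) and Cd38, an enzyme that consumes NAD+, among 9 tested genes of NAD+ supply and use (0.45, adjusted p = 0.00795; edgeR) were called higher. In the 6 other lists 0 genes were called, 1 of them the interferon ligands, which could not be tested. Irf7 missed the threshold at 0.54 (adjusted p = 0.0577, edgeR). The smallest p of the others belonged to Tnks (-0.055), Hpf1 (0.069), Dtx1 (-0.042) and Xrn1 (-0.093).

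In the PFC the same lists held 0 called genes by edgeR. The interferon-stimulated genes had a median of 0.96, with Mx1 at the smallest p (1.44, adjusted p = 0.197), and 8 of 10 had an unadjusted p under 0.05 in the higher direction. The signalling genes had a median of 0.35, with Stat2 at the smallest p (0.40, adjusted p = 0.234, edgeR) and 6 of 11 higher under 0.05. Over all genes 5.17% were higher at that unadjusted p. The medians of the lists of other ADP-ribosyltransferases, ADP-ribose removal, NAD+, Deltex and ZAP partners lay between -0.018 and 0.068, with 1, 1, 0, 0 and 1 genes higher and 0, 1, 0, 0 and 0 lower at an unadjusted p under 0.05. Their smallest p values belonged to Parp3 (0.48), Xrcc1 (0.22), Sarm1 (0.11), Dtx2 (0.20) and Trim25 (0.46).

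Whether a member responded differently in 2 experiments was tested in 1 fit over the 29 libraries. Parp10 was called in the contrast of PFC and co-culture (adjusted p under 0.1), with a log2 fold change larger in the PFC by 0.50 ± 0.14 (adjusted p = 0.0890, edgeR), among 1.95% of all genes called. The fit took 1 spread per gene from all 29 libraries. The SE of this difference was below that of the response of Parp10 in the PFC alone (0.18), so it may understate the spread between PFC libraries. Parp9 and Dtx3l had differences of 0.52 ± 0.17 and 0.44 ± 0.14 in that contrast and did not pass (adjusted p = 0.134 and 0.135, edgeR). Their SEs too were below those of their responses in the PFC alone (0.20 and 0.17). Between PFC and microglia 0 members were called, against 0.933% of all genes, and between microglia and co-culture 0, against 0.116%. At an unadjusted p under 0.05 the contrast of PFC and co-culture held Parp9, Parp10 and Dtx3l, against 15% of all genes. That of PFC and microglia held Parp9, Parp10 and Zc3hav1, against 11.9%, and that of microglia and co-culture held Parp11, against 5.49%. So for Parp14, called in microglia and in the co-culture, the difference of -0.10 ± 0.15 between them was not called.

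The members' covariation was described over libraries after each group's mean had been taken off, so that the treatment difference did not enter. Libraries share depth, lane and preparation, and the correlations carry no test. Over the 21 pairs of interferon-induced members the median Pearson r was 0.85 in the PFC (6 libraries), 0.79 in microglia (8 libraries) and 0.26 in the co-culture (15 libraries). Such a median over pairs of all genes was not computed. In the PFC the lane 7 library of each group was its highest for 6 of these 7 members, all but Parp11, which enters these r values. The closest pair over all 29 libraries was Parp9 and Parp14 (r = 0.85), followed by Parp14 and Dtx3l (0.83). Parp9 and Dtx3l, which share exon bases, had 0.76. Parp1 had a median r of -0.30 with the other 7 members over 29 libraries, which was -0.66 in the PFC, 0.18 in microglia and 0.012 in the co-culture. Parp11 went with the other 6 interferon-induced members in microglia (median r 0.71) but not in the PFC (-0.062) or the co-culture (-0.17).

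**Figure D4:**
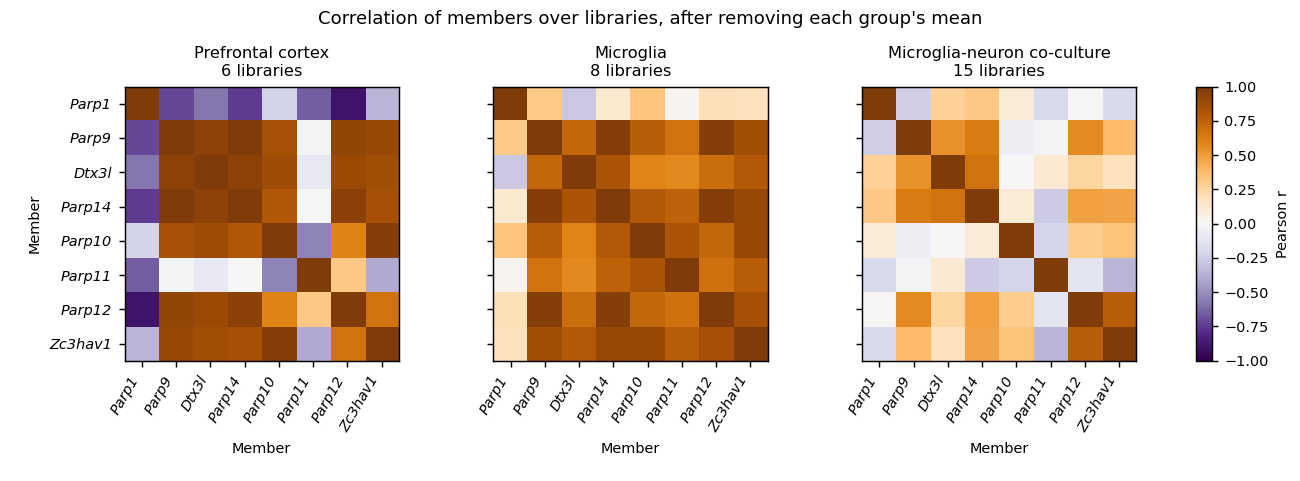
Pearson correlation of each pair of members over the libraries of each experiment, after removing group means (colour from -1 to 1). Parp9, Dtx3l, Parp14, Parp12 and Zc3hav1 form a block of high values in the PFC and in microglia that is weaker in the co-culture.

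The genes whose group-centred levels went most closely with the mean of the 7 interferon-induced members over the 29 libraries were Rnf213 (r = 0.89), Irf9 (0.88), Ifit1 (0.88), Trim30a (0.88) and Ddx60 (0.87), among 13642 genes that passed the filter in all 3 experiments and are not members, whose median r was -0.0041. For Rnf213 r was 0.99 in the PFC, 0.93 in microglia and 0.64 in the co-culture. In microglia Rnf213, Ifit1 and Trim30a were called higher, with log2 fold changes of 0.34, 0.69 and 0.28, while Irf9 (0.16) and Ddx60 (0.29) were not. In the PFC and the co-culture all 5 had log2 fold changes above 0 and none was called.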

How the data were processed

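The authors made TruSeq RNA v2 libraries from 500 ng of total RNA and sequenced single reads of 50 bases on an Illumina HiSeq instrument. Per the labels, they used bcl2fastq 2.20.2, FastQC 0.11.5, STAR 2.5.2b with the mm10 genome and featureCounts 1.5.1, and they deposited raw counts of reads per gene, with no normalization. Annotation release and strand setting are not given in the sources used here.

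The 29 columns were matched to samples by library name, which also gives replicate number and sequencing lane, and 0 value columns were left without a sample. Symbols, coordinates and exon lengths came from GENCODE M21 (GRCm38). Each experiment was fitted alone with edgeR 4.0.16 (R 4.3.3), with low counts filtered by filterByExpr, TMM factors, the quasi-likelihood test and Benjamini-Hochberg adjustment over all genes tested. Thresholds were an adjusted p of 0.1 and a log2 fold change of 0.2 (PFC), 0.1 and 0.1 (microglia, for which the sources give no threshold) and 0.05 and 0.1 (co-culture). Intervals used the fit's moderated degrees of freedom. Differences of responses were contrasts of 1 fit over all libraries. CPM used the same factors. Library pairs within a group differed by more than sampling noise (a chi-square of at least 1.48 per degree of freedom). The scripts were tested on simulated data.

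Alternatives were DESeq2 1.42.0, RLE factors, no filter on low counts, 1 RUVs factor, the lane as a block, a replicate block, each library left out (chosen after seeing the data for the co-culture), and, for differences, limma 3.58.1's voom with library weights. The members and lists were chosen with earlier results of these data known. All 8 members are named. From each list, up to 5 genes past the threshold are named by p, otherwise the gene with the smallest p, with the 5 genes most correlated with the members. Some genes of these lists are not reported here by name.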

Additional observations from a re-analysis of the deposited data

Results flagged for a closer look

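Outlying libraries were looked for in microglia and the co-culture, in 32 groups of values (8 members, 2 treatments, 2 experiments), with Dixon's criterion, which chance alone meets in about 1 of 20 groups. It was met in 2. Parp11 in sc-control replicate 6 of the microglia stood at 22.6 CPM, below the next control at 25.4 CPM. Parp10 in sc-control replicate 1 of the co-culture stood at 5.02 CPM, above the next control at 4.07 CPM. Without these libraries the log2 fold changes were 0.046 for Parp11 in microglia and 0.10 for Parp10 in the co-culture, neither past the threshold. The response of Parp10 differed between PFC and co-culture by 0.50 on the log2 scale in a test of the difference itself, which pooled the spread of the experiments. That difference rested on PFC groups of 3 libraries each, of which the lane 7 control had 7.05 CPM against 4.61 and 4.37 CPM in the other controls.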

How the results depend on the processing

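The number of members called in the PFC moved most. It was 0 with DESeq2 and with RLE factors, 3 with no filter on low counts, 4 with an RUVs factor, 2 with the lane as a block and 6 with the replicate block, and 0 to 4 with 1 library left out. In the PFC the replicate block kept only replicates 2 and 3 of each group and dropped sc-control replicate 4, the lane 7 control. Of the libraries kept, only anti-miR-99b replicate 3 was on lane 7. The lane difference thus entered the treatment difference of that fit and cannot be told apart from it. The genes called there went from 15 to 93, 412, 315, 77 and 513 with DESeq2, no filter, RUVs, the lane block and the replicate block, and to 1 to 201 with 1 library left out. The median log2 fold change of the 7 interferon-induced members in the PFC was 0.75 with the replicate block and 0.34 to 0.71 with 1 library left out. In microglia 2 members were called with the replicate block and 0 to 5 with 1 library left out, and genes called went from 73 to 38 (DESeq2), 167 (no filter), 158 (RUVs), 311 (replicate block) and 2 to 409 (1 library left out), with medians of 0.16 to 0.24. In the co-culture 0 members were called with the replicate block, and genes called went from 227 to 515 (RUVs), 121 (lane block), 95 (replicate block) and 143 to 300 (1 library left out), where 1 member was called each time and medians were 0.041 to 0.10. Differences between experiments called 3 members (PFC minus microglia: Parp9, Parp10, Zc3hav1; PFC minus co-culture: the same symbols) with voom, and 1 (Parp9) and 3 (Parp9, Parp10, Dtx3l) with the lane block. The share of all genes called for a difference with voom or with the lane block was not counted, so these member counts stand without a background. The causes were not tested.

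Signs changed only for log2 fold changes near 0. Parp11 in the PFC became 0.0068 with RUVs and 0.015 with the replicate block, and ranged from -0.043 to 0.046 with 1 library left out, as Parp1 did from -0.077 to 0.064. In the co-culture, with 1 library left out, Dtx3l ranged from -0.037 to 0.036, Parp11 from -0.013 to 0.0063 and Parp1 from -0.018 to 0.00038. For the other 6 members of the PFC and all 8 of the microglia the sign held in every alternative.

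Libraries with the same number did not deviate together: the correlation of their deviations from the group means was 0.048 and -0.28 in the PFC, -0.051 and -0.038 in microglia and -0.015 to 0.047 in the co-culture. The numbers were therefore not taken as a pairing, and the replicate block, which also drops libraries whose number occurs once, is given as an alternative only.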
